A study of Homo sapiens with 15 samples.

Results

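Deoxynucleotide supply was followed through 9 enzymes, chosen by name for their part in making, balancing or removing deoxynucleoside triphosphates (dNTPs), among the 62754 gene IDs of a table of messenger RNA counts. The 9 are RRM1, RRM2, TYMS, DUT, DTYMK, DCK, DCTPP1, SAMHD1 and TK2. All 9 were found by their Ensembl identifiers and all 9 passed the filter on low counts. The cells were NCI-H69, a human small cell lung carcinoma line of the classic, neuroendocrine type, with no genotype other than that of the line given. They were treated with CS2, with FB23-2 or with the solvent DMSO, and 3 libraries were made of each treatment. The series names both compounds as inhibitors of FTO, an enzyme that removes methyl groups from adenosine in RNA, and asks how they change the transcriptome. CS2 is better known as brequinar, which blocks dihydroorotate dehydrogenase, an enzyme that makes a precursor of uridine and cytidine nucleotides. The sources used here state neither doses nor times of treatment, and the groups are set side by side without a matched dose. A further 6 samples of the line H82 were not analysed here.

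Cells make DNA precursors by 2 routes. In the de novo route ribonucleotide reductase turns ribonucleoside diphosphates into deoxyribonucleoside diphosphates, and thymidylate synthase adds the methyl group that makes thymidylate from dUMP. In the salvage route kinases phosphorylate deoxynucleosides taken up from outside the cell or set free by DNA breakdown. Other enzymes break dNTPs down again, and many genes of the de novo route are known to be transcribed most in cells that enter S phase.

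Library totals ran from 29916267 to 45022633 counts. A gene was tested if it passed a filter on low counts, which left 19781 genes. Levels are given as CPM, the counts of a gene as a share of its library's total, scaled by the trimmed mean of M-values, and the 3 libraries of a group are given as replicates 1, 2 and 3. Transcripts of the mitochondrial genome took 7.3 to 9.05% of counts in CS2 libraries, 6.83 to 10.97% in FB23-2 libraries and 5.18 to 5.69% in DMSO libraries. The highest share was in FB23-2 replicate 2, which stood apart from replicates 1 and 3 of its group (6.83% and 6.91%), and results that change without it are given both ways. Its counts over the genes tested stood apart from those of its group as well, as given below with the processing. Leaving mitochondrial transcripts out of the totals changed 1 call among the 9 genes, that of RRM2 with FB23-2 against DMSO. All 8 neuroendocrine markers were detected, with a summed level of 2020 to 2119 CPM in CS2 libraries, 1944 to 2107 CPM in FB23-2 libraries and 2512 to 2748 CPM in DMSO libraries. NEUROD1 among them was very low, with averages of 0.455 CPM with CS2, 0.292 CPM with FB23-2 and 0.584 CPM with DMSO. In the CS2 libraries 4 of the 8 were called lower and 1 higher than in DMSO, and in the FB23-2 libraries 6 were called lower and 1 higher, where 49.7% (CS2) and 52.0% (FB23-2) of all genes were called in either direction. The 5 blood cell markers together reached at most 3.45 CPM in CS2, 2.80 CPM in FB23-2 and 4.13 CPM in DMSO libraries. A limit on the counts of CD68 and LYZ among them is given below with SAMHD1. The 3 endothelial markers reached at most 0.732, 0.408 and 2.46 CPM in CS2, FB23-2 and DMSO libraries. The 4 fibroblast markers reached 32.9 to 39.6 CPM in CS2, 10.5 to 15.3 CPM in FB23-2 and 52.6 to 54.3 CPM in DMSO libraries, almost all of it COL1A2, with DCN at 0 in all 9. In bulk RNA, fewer cells of a type and less RNA per cell cannot be told apart.

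The sequences around the starts of 4 of these genes are shown for their promoter letters. RRM2 and SAMHD1 hold CCAAT boxes, and TYMS and DUT hold letters of the E2F type. With CS2 against DMSO the log2 fold changes were 0.11 for RRM2, 0.69 for SAMHD1, 0.45 for TYMS and 0.46 for DUT. With FB23-2 against DMSO they were -0.19, -0.26, 0.38 and -0.07 in the same order. A link between promoter letters and response was not tested. E2F proteins are factors known to drive genes of the G1 to S transition, and the CCAAT box is the known binding site of NF-Y. Each window holds 250 bases before and 50 bases after a transcription start of RefSeq (GRCh38.p14), 5′ to 3′ on the strand of the gene. Capitals mark TTTCCCGC, TTTCGCGC, TTTGCCGC or TTTGGCGC (the E2F letters searched) or CCAAT, on either strand, and no capitals overlap. The RRM2 window is chr2:10122489-10122788 (plus strand), the TYMS window chr18:657403-657702 (plus strand), the DUT window chr15:48331947-48332246 (plus strand) and the SAMHD1 window chr20:36951659-36951958 (minus strand).
RRM2: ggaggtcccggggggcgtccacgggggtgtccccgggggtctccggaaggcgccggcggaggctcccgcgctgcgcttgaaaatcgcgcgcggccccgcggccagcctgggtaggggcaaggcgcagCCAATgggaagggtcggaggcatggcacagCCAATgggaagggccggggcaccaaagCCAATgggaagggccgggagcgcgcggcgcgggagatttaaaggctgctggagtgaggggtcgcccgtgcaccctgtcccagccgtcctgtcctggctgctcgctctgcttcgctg
TYMS: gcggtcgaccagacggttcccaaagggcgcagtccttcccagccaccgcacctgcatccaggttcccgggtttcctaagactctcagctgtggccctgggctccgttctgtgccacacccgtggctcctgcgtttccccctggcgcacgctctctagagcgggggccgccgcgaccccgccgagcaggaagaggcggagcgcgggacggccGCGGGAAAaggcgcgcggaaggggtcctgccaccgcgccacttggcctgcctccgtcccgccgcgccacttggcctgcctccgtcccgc
DUT: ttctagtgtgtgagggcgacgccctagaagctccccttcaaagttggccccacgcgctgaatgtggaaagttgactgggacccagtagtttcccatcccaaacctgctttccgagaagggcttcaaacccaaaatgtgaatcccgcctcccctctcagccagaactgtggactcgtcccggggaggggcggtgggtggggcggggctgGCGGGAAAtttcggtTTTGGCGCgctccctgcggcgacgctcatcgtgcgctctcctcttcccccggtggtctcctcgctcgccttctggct
SAMHD1: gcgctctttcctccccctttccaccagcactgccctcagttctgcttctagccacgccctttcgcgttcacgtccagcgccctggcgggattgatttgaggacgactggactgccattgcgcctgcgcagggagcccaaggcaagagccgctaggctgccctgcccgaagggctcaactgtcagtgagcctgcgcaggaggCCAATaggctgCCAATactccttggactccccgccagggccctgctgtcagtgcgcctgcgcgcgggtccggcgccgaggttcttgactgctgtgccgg

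Of the 9 genes, 3 held an E2F match (TYMS, DUT and DCK) in a promoter window, and 4 held a CCAAT match (RRM1, RRM2, DTYMK and SAMHD1). Counted by window, 3 of their 13 windows held an E2F match and 5 of 13 a CCAAT match. Among all 35116 RefSeq windows of that length 3.31% held an E2F match and 34.6% a CCAAT match. The RRM2 window above carries 3 CCAAT boxes, at 123, 93 and 66 bases before the start. The DUT window carries 2 E2F matches, at 42 and 27 bases before the start, and 0.145% of all windows held at least 2. DUT has 4 RefSeq starts and RRM2 has 2, and the matches stand in the windows described and, for RRM2, also at 249 bases before its other start. A match describes the letters and is no measurement of binding.

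In the CS2 libraries 8 of the 9 genes differed from DMSO, with 7 higher and 1 lower. The threshold was an adjusted p of 0.05 (edgeR's quasi-likelihood test, Benjamini-Hochberg over all 19781 genes), and 49.7% of all genes were called in this comparison, 24.3% higher and 25.3% lower. The median log2 fold change was 0.45 over the 9 and 0.00 over all genes. In the FB23-2 libraries 6 of the 9 differed from DMSO, with 1 higher and 5 lower, where 52.0% of all genes were called, 25.4% higher and 26.7% lower. Their median was -0.19, against 0.00 over all genes. Set directly against the CS2 libraries, the FB23-2 libraries had 6 of the 9 lower and 0 higher, where 59.6% of all genes were called, 29.7% higher and 30.0% lower. The libraries of the groups compared did not overlap for 8 of the 9 genes with CS2 against DMSO (60.6% of all genes), 6 with FB23-2 against DMSO (59.8%) and 7 with FB23-2 against CS2 (62.9%). Both comparisons with DMSO use the same 3 DMSO libraries. The series calls the libraries of a group biological replicates and says no more on how they were grown, so p-values measure the spread between these libraries.

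**Figure D1:**
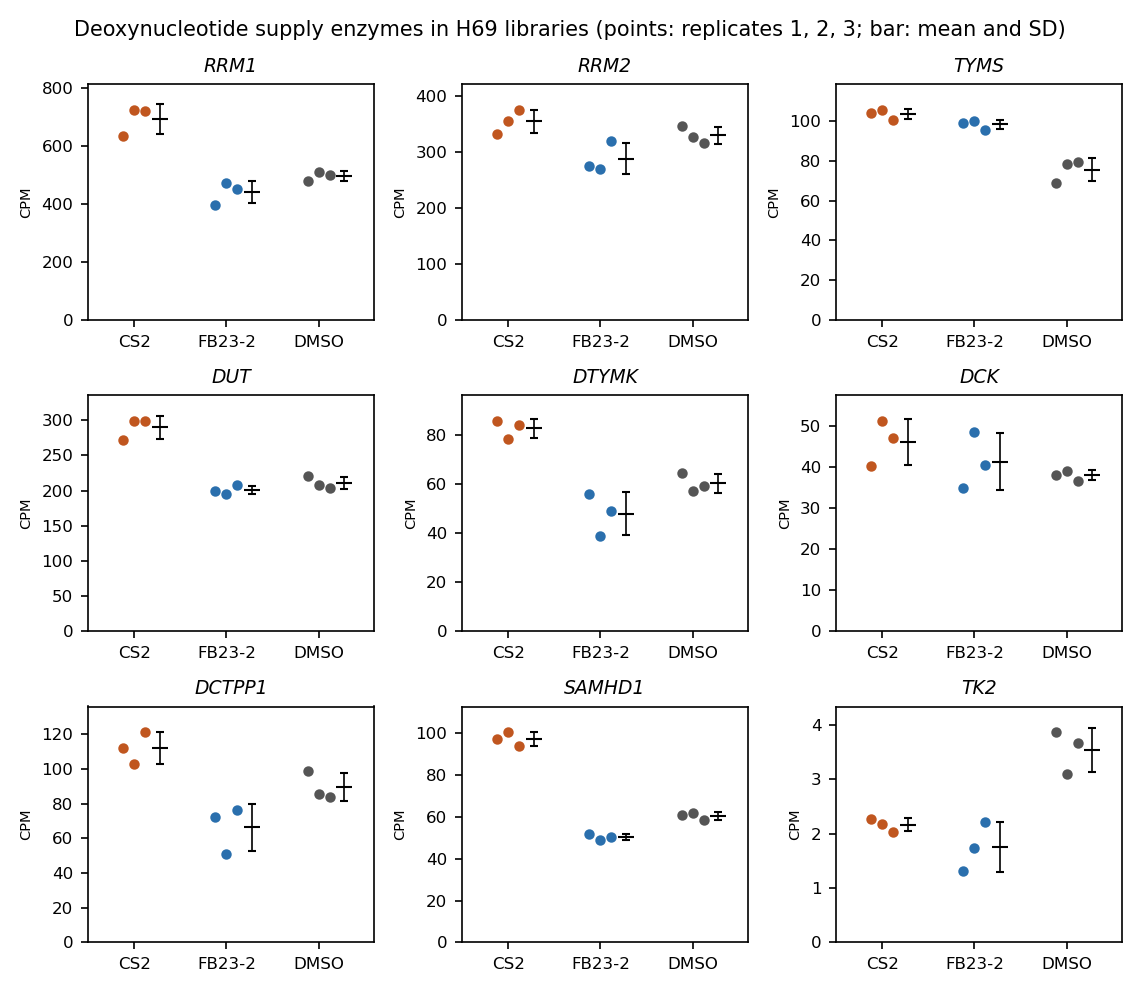
Level of each of the 9 genes in every library (TMM-scaled CPM, linear axes that start at 0), with CS2, FB23-2 and DMSO from left to right, a point for each library and a bar for the group mean with its SD. RRM1, TYMS, DUT, DTYMK, DCK, DCTPP1 and SAMHD1 lie above DMSO in all 3 CS2 libraries, and TK2 lies below DMSO in all 6 treated libraries.

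Ribonucleotide reductase is made of a large subunit, RRM1, which holds the catalytic and regulatory sites, and a small subunit, RRM2 or RRM2B, which holds the radical that starts the reaction. With CS2 RRM1 rose and RRM2 was not called, while with FB23-2 the log2 fold changes were -0.17 and -0.19; the difference between the subunits was not tested. RRM1 (ENSG00000167325, chr11:4094707-4138876) was at 633, 724 and 719 CPM in the CS2 libraries, 398, 471 and 453 CPM in the FB23-2 libraries and 478, 512 and 501 CPM in the DMSO libraries. Every CS2 library was above every DMSO library, and every FB23-2 library below every DMSO library. RRM1 averaged 692 ± 51 CPM with CS2 and 497 ± 17 CPM with DMSO (SD, n = 3 each), and rose by 0.48 ± 0.08 on the log2 scale (SE) with an adjusted p of 4.37e-05 in edgeR's test. With FB23-2 it averaged 441 ± 38 CPM. Its difference from DMSO, -0.17 ± 0.08, missed the threshold (adjusted p = 0.0727, 95% interval -0.34 to -0.01). It was called in 3 of 19 alternatives in edgeR's test. These were without FB23-2 replicate 2 (-0.22, adjusted p = 0.0149), with a correction for gene span (-0.24, adjusted p = 0.0395) and with the replicate number as a block (-0.18, adjusted p = 0.0270). The libraries of FB23-2 and CS2 differed by -0.65 ± 0.08 (adjusted p = 6.79e-07).

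RRM2 (ENSG00000171848, chr2:10120698-10131419), the subunit known to be made in S phase and broken down after it, was at 334, 356 and 376 CPM in the CS2 libraries, 275, 270.4 and 321 CPM in the FB23-2 libraries and 347, 327 and 316 CPM in the DMSO libraries. The CS2 and DMSO libraries overlapped, and so did the FB23-2 and DMSO libraries. Against DMSO, RRM2 was not called with CS2 (0.11 ± 0.08, adjusted p = 0.282, 95% interval -0.06 to 0.27; -0.01 after a correction for gene span), the only one of the 9 for which this held. With FB23-2 RRM2 fell by 0.19 in log2 units (adjusted p = 0.0457), a call close to the threshold that held in 6 of 19 alternatives. It was lost without replicate 2 or 3 of CS2 (-0.19 and -0.18), replicate 1 or 2 of FB23-2 (-0.15 each) or replicate 1, 2 or 3 of DMSO (-0.16, -0.20 and -0.22), and in 6 other alternatives, DESeq2 among them (adjusted p = 0.0644). RRM2 was lower with FB23-2 than with CS2, by -0.30 ± 0.08 (adjusted p = 0.00289), a call that a correction for gene span ended (-0.12, adjusted p = 0.239). Of the 50-base windows of RRM2 transcripts 20.3% are also found in other genes. The gene sharing most of them is AC007240.1, on the same strand, whose exons cover 20.2% of the exon bases of RRM2. It has no row in the table of counts. The pseudogenes RRM2P3 and RRM2P2 share windows too, and the part of any of these genes in the RRM2 counts was not tested.

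RRM2B, on the list of further dNTP genes given below, encodes the alternative small subunit, a p53 target known to serve cells outside S phase and under DNA damage. It averaged 25.3 ± 3.2 CPM with CS2, 33.0 ± 1.6 CPM with FB23-2 and 18.8 ± 1.1 CPM with DMSO. RRM2B rose against DMSO with both compounds, by 0.42 ± 0.10 with CS2 (adjusted p = 0.00238) and 0.81 ± 0.10 with FB23-2 (adjusted p = 2.5e-06), and was higher with FB23-2 than with CS2 by 0.38 ± 0.10 (adjusted p = 0.00343). Small and large subunits were therefore also compared as ratios of CPM per kilobase of exon, as a description without a test. The ratio of RRM1 to RRM2 was 2.48 ± 0.10 with CS2, 1.96 ± 0.23 with FB23-2 and 1.92 ± 0.14 with DMSO (SD, n = 3 each). The ratio of RRM2 to RRM2B was 14.7 ± 1.3 with CS2, 9.12 ± 0.48 with FB23-2 and 18.3 ± 1.8 with DMSO. The ranges of the 3 groups did not overlap for RRM2 over RRM2B (13.4 to 16.1 with CS2, 8.74 to 9.66 with FB23-2 and at least 16.4 with DMSO), and RRM2 was the more abundant small subunit mRNA in every library.

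Thymidylate synthase (TYMS) makes dTMP from dUMP, the dUTPase encoded by DUT supplies dUMP and keeps uracil out of DNA, and the kinase encoded by DTYMK turns dTMP into dTDP. All 3 rose with CS2 by almost the same amount, whereas with FB23-2 TYMS rose, DTYMK fell and DUT was not called. TYMS (ENSG00000176890, chr18:657604-673578) was at 104, 105 and 100.4 CPM in the CS2 libraries, 99.0, 99.8 and 95.4 CPM in the FB23-2 libraries and 68.8, 78.4 and 79.1 CPM in the DMSO libraries. All 6 treated libraries were above all 3 DMSO libraries, and each FB23-2 library lay below each CS2 library. TYMS rose by 0.45 ± 0.08 with CS2 (adjusted p = 7.21e-05 in edgeR's test) and by 0.38 ± 0.08 with FB23-2 (adjusted p = 0.000401). It was the only one of the 9 called higher with FB23-2. Between FB23-2 and CS2 it differed by -0.07 ± 0.08 (adjusted p = 0.431), with a 95% interval of -0.23 to 0.09, and by 0.08 after a correction of each library for gene span.

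Of the exon bases of TYMS 39.1% are overlapped by ENOSF1 and 7.41% by TYMSOS, both on the opposite strand. The strand setting of the counting is not given, so reads of these genes cannot be told apart from those of TYMS with certainty. ENOSF1 averaged 119 ± 15 CPM with CS2, 99.2 ± 13 CPM with FB23-2 and 87.6 ± 7.9 CPM with DMSO. ENOSF1 too was called higher with CS2 than with DMSO (0.44 ± 0.10, adjusted p = 0.00138), and was not called with FB23-2 (0.18 ± 0.10, adjusted p = 0.153). TYMSOS averaged 10.2 ± 0.50 CPM with CS2, 4.12 ± 0.63 CPM with FB23-2 and 5.85 ± 0.90 CPM with DMSO. The part of these genes in the TYMS counts was not tested.

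DUT (ENSG00000128951, chr15:48331011-48343373) was at 271, 298 and 299 CPM in the CS2 libraries, 199, 196 and 208 CPM in the FB23-2 libraries and 221, 207 and 204 CPM in the DMSO libraries. The CS2 libraries stood above all others, and those of FB23-2 and DMSO overlapped. DUT rose by 0.46 ± 0.07 with CS2 (adjusted p = 2.38e-05), and its difference with FB23-2 was -0.07 ± 0.07 (adjusted p = 0.428, 95% interval -0.22 to 0.08). FB23-2 libraries were lower than CS2 libraries by -0.53 ± 0.07 (adjusted p = 2.78e-06). The exons of the antisense gene DUT-AS1 overlap 14.5% of those of DUT. DUT-AS1 averaged 7.65 ± 1.0 CPM with CS2, 15.6 ± 0.53 CPM with FB23-2 and 6.68 ± 0.91 CPM with DMSO. In edgeR's test it was called higher with FB23-2 than with DMSO (1.23 ± 0.13, adjusted p = 2.72e-07). With CS2 it was not called (0.20 ± 0.14, adjusted p = 0.246). The part of DUT-AS1 in the DUT counts was not tested.

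DTYMK (ENSG00000168393, chr2:241675742-241686991) was at 85.8, 78.5 and 84.2 CPM in the CS2 libraries, 56.1, 38.7 and 49.0 CPM in the FB23-2 libraries and 64.6, 57.2 and 59.1 CPM in the DMSO libraries. The 3 groups did not overlap, with CS2 above DMSO and FB23-2 below it, and the lowest value was that of FB23-2 replicate 2. DTYMK rose by 0.46 ± 0.11 with CS2 (adjusted p = 0.00133) and fell by 0.33 on the log2 scale with FB23-2 (SE 0.11, adjusted p = 0.0133). The call with FB23-2 was lost without FB23-2 replicate 2 (-0.20, adjusted p = 0.0513) and without DMSO replicate 1 (-0.28, adjusted p = 0.0691). FB23-2 libraries were lower than CS2 libraries by -0.79 ± 0.11 (adjusted p = 2.88e-06).

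**Figure D2:**
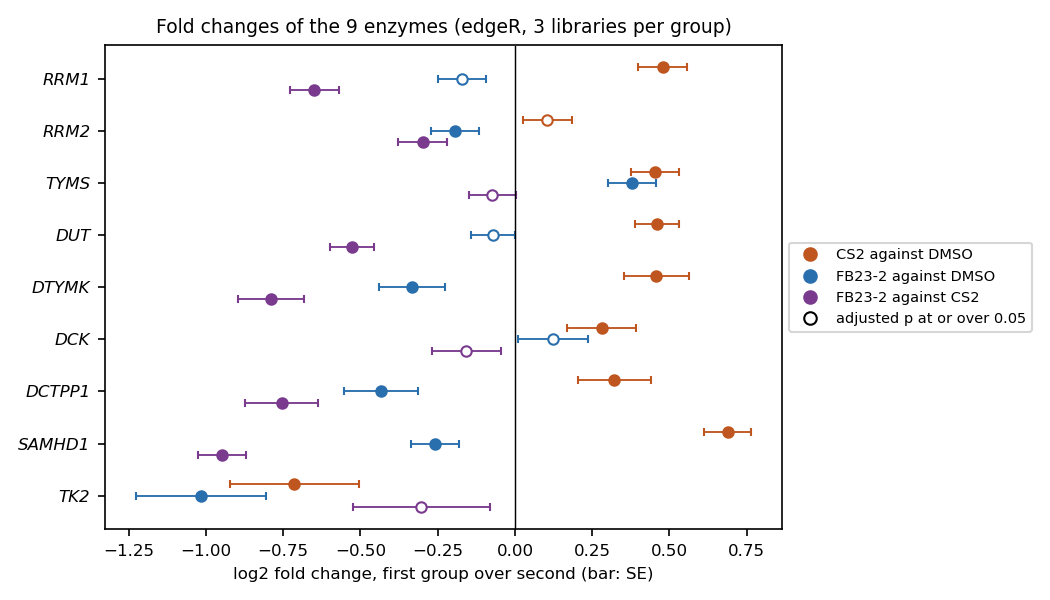
Log2 fold change of each of the 9 genes in the 3 comparisons, with points for the estimate, bars for its SE, open points where the adjusted p was at or over 0.05, and a line at 0. With CS2 against DMSO only TK2 lies on the lower side (RRM2 too, at -0.01, after a correction for gene span), with FB23-2 against DMSO TYMS alone was called on the higher side, and with FB23-2 against CS2 all 9 estimates are below 0 (TYMS at 0.08 after that correction).

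DCK, the cytosolic kinase of deoxycytidine, deoxyadenosine and deoxyguanosine, also activates drugs such as cytarabine and gemcitabine. DCK (ENSG00000156136, chr4:70992538-71030914) was at 40.2, 51.4 and 47.1 CPM in the CS2 libraries, 34.9, 48.6 and 40.7 CPM in the FB23-2 libraries and 38.2, 39.2 and 36.8 CPM in the DMSO libraries. The CS2 libraries were above all DMSO libraries, while FB23-2 libraries lay on both sides of them. With CS2 the difference was 0.28 ± 0.11, called with an adjusted p of 0.0445 that held in 12 of 19 alternatives. The call was lost without replicate 2 or 3 of CS2 (0.20 and 0.27) or replicate 1, 2 or 3 of DMSO (0.28, 0.30 and 0.26), and with limma voom (0.27). With FB23-2 DCK was not called (0.12 ± 0.11, adjusted p = 0.373, 95% interval -0.11 to 0.36), nor between FB23-2 and CS2 (-0.16 ± 0.11, adjusted p = 0.237, 95% interval -0.39 to 0.08). Without FB23-2 replicate 2 its difference from DMSO was -0.01, and that between FB23-2 and CS2 was called (-0.29, adjusted p = 0.0129).

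TK2, the mitochondrial kinase of thymidine and deoxycytidine, was the only one of the 9 to fall with CS2 and had the lowest level of all. TK2 (ENSG00000166548, chr16:66508003-66552544) was at 2.27, 2.18 and 2.03 CPM in the CS2 libraries, 1.31, 1.73 and 2.22 CPM in the FB23-2 libraries and 3.87, 3.08 and 3.66 CPM in the DMSO libraries. These rest on 61 to 77 counts in a CS2 library, 44 to 76 in an FB23-2 library and 97 to 165 in a DMSO library, and its SEs are the widest of the 9. All 6 treated libraries lay below all 3 DMSO libraries. TK2 fell by 0.71 on the log2 scale with CS2 (SE 0.21, adjusted p = 0.00807) and by 1.02 with FB23-2 (SE 0.21, adjusted p = 0.000474). Between FB23-2 and CS2 it was not called (-0.30 ± 0.22, adjusted p = 0.248, 95% interval -0.76 to 0.16). Of the exon bases of TK2 25.0% are overlapped by other genes, and 20.6% of the windows of its transcripts are shared with other genes. The part of this overlap in the low counts of TK2, and in the ratios to TK2 given below, was not tested.

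TK1, the cytosolic thymidine kinase of S phase cells, and DGUOK, the mitochondrial kinase of purine deoxynucleosides, belong to the further list and are the counterparts of TK2. TK1 averaged 159 ± 8.3 CPM with CS2, 66.0 ± 13 CPM with FB23-2 and 38.9 ± 0.90 CPM with DMSO. It rose by 2.03 ± 0.11 with CS2 (4.08-fold, adjusted p = 2.11e-11) and by 0.76 ± 0.11 with FB23-2 (1.69-fold, adjusted p = 7.49e-06). The cytosolic and the mitochondrial thymidine kinase thus moved in opposite directions with each compound, and the ratio of TK1 to TK2 per kilobase of exon was 283 ± 5.6 with CS2, 149 ± 36 with FB23-2 and 42.7 ± 4.2 with DMSO. The ratio of DCK to TK2 was 47.8 ± 7.3 with CS2, 54.2 ± 12 with FB23-2 and 24.2 ± 3.5 with DMSO. DGUOK averaged 27.7 ± 1.3 CPM with CS2, 21.2 ± 1.9 CPM with FB23-2 and 25.8 ± 0.81 CPM with DMSO. It was not called with CS2 (0.10 ± 0.10, adjusted p = 0.412) and fell by 0.29 with FB23-2 (adjusted p = 0.0177), a call that was lost without FB23-2 replicate 2 (-0.21) or DMSO replicate 1 (-0.26).

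**Figure D3:**
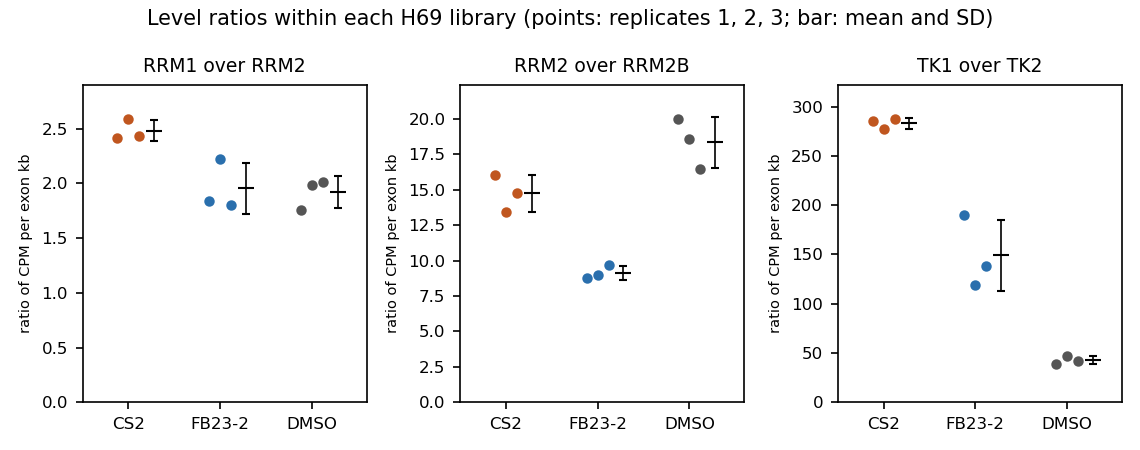
Ratios between genes in every library, from CPM per kilobase of exon, with CS2, FB23-2 and DMSO from left to right, a point for each library and a bar for the group mean with its SD. TK1 over TK2 ranges from 277 to 288 with CS2, 120 to 190 with FB23-2 and 39.2 to 47.3 with DMSO, and RRM2 over RRM2B is lowest with FB23-2.

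SAMHD1 cleaves dNTPs to deoxynucleosides and triphosphate, and DCTPP1 cleaves dCTP and its modified forms to monophosphates. Both rose with CS2 and fell with FB23-2. SAMHD1 (ENSG00000101347, chr20:36889773-36951901) was at 97.1, 101 and 93.6 CPM in the CS2 libraries, 51.9, 48.9 and 50.1 CPM in the FB23-2 libraries and 60.9, 61.6 and 58.2 CPM in the DMSO libraries. The 3 groups did not overlap and the libraries within each lay close together. SAMHD1 rose by 0.69 ± 0.08 with CS2 (1.61-fold, adjusted p = 3.98e-07), the largest increase of the 9, and fell by 0.26 with FB23-2 (SE 0.08, adjusted p = 0.00807). FB23-2 libraries were lower than CS2 libraries by -0.95 ± 0.08 (adjusted p = 3.13e-09), the largest difference of the 9 in that comparison. SAMHD1 is known for its high level in myeloid cells, whose markers CD14, LYZ and CD68 reached at most 2.95, 0.0526 and 0.0583 CPM in any library. Other genes overlap 85.8% of the exon bases of CD68 and 34.0% of those of LYZ. The part of this overlap in the low counts of CD68 and LYZ was not tested.

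DCTPP1 (ENSG00000179958, chr16:30423619-30430075) was at 112, 103 and 121 CPM in the CS2 libraries, 72.0, 51.0 and 76.0 CPM in the FB23-2 libraries and 99.0, 85.7 and 83.9 CPM in the DMSO libraries. The groups did not overlap, with CS2 above DMSO and FB23-2 below it. With CS2 the difference was 0.32 ± 0.12, called with an adjusted p of 0.0304 that held in 13 of 19 alternatives. The call was lost without replicate 1 or 3 of CS2 (0.33 and 0.27) or replicate 2 or 3 of DMSO (0.29 and 0.28), and with libraries scaled by size alone (0.32, adjusted p = 0.0892). With FB23-2 DCTPP1 fell by 0.43 (SE 0.12, adjusted p = 0.00515), and without FB23-2 replicate 2, its lowest library, the difference was -0.27 and still called (adjusted p = 0.00737). FB23-2 libraries were lower than CS2 libraries by -0.76 ± 0.12 (adjusted p = 2.68e-05). Of its exon bases 42.1% are overlapped by ZNF771 on the opposite strand, which averaged 14.2 ± 0.82 CPM with CS2, 8.37 ± 1.5 CPM with FB23-2 and 9.61 ± 0.45 CPM with DMSO. In edgeR's test ZNF771 too was called higher with CS2 than with DMSO (0.57 ± 0.13, adjusted p = 0.00143). It was not called with FB23-2 (-0.20 ± 0.13, adjusted p = 0.212). The part of ZNF771 in the DCTPP1 counts was not tested.

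The levels of the 9 genes were ordered by CPM per kilobase of exon. Exon length was that of all annotated exons of a gene merged, 11.3 kb for SAMHD1 and 3.23 kb for DCK, and the order depends on it. By CPM alone SAMHD1 (60.2) was above DCK (38.1) in the DMSO libraries. The ratios above use the same lengths. RRM1 was the highest in every group, at 166 with CS2, 106 with FB23-2 and 119 with DMSO. In the DMSO libraries RRM2 (62.0), DUT (57.4) and DCTPP1 (56.6) came next, with libraries that overlapped between neighbours, followed by TYMS (30.5), DTYMK (24.6), DCK (11.8), SAMHD1 (5.35) and TK2 (0.494). In the CS2 libraries DUT (78.8), DCTPP1 (70.8) and RRM2 (66.7) followed RRM1, again overlapping between neighbours. In the FB23-2 libraries DUT (54.6) and RRM2 (54.3) overlapped, and so did DCTPP1 (42.0) and TYMS (39.7). The last 4 places, DTYMK, DCK, SAMHD1 and TK2, were in the same order in all 3 groups, with libraries that did not overlap between neighbours.

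**Figure D4:**
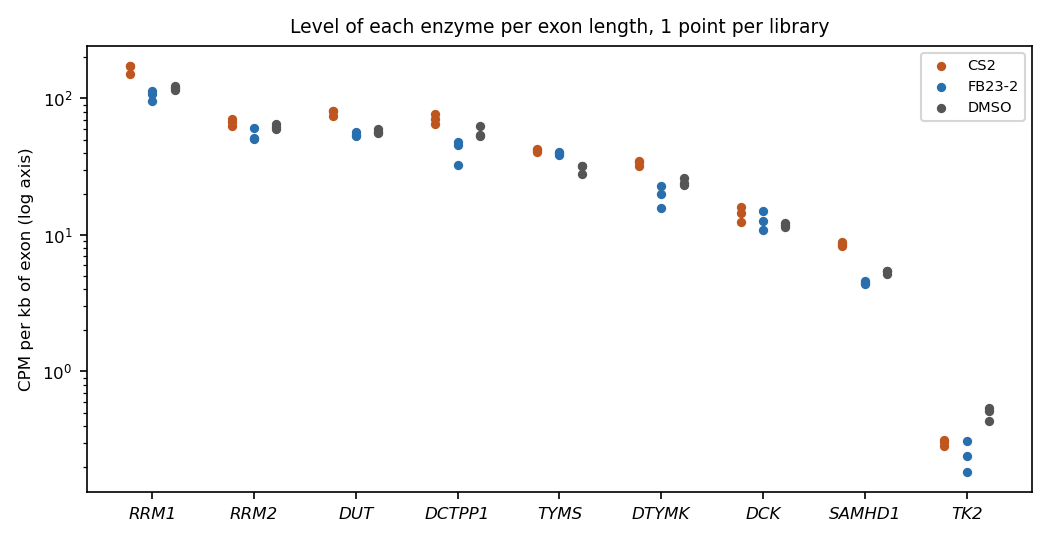
Level of the 9 genes in every library as CPM per kilobase of exon on a log axis, with CS2, FB23-2 and DMSO marked by colour. RRM1 is highest (166, 106 and 119 on average with CS2, FB23-2 and DMSO) and TK2 lowest (0.301, 0.244 and 0.494).

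The other genes of dNTP metabolism were read from a list of 24, of which 23 were tested. CDA, a cytidine deaminase, had 0 counts in all 9 libraries, which allows up to 0.101 CPM at 3 counts in a library. With CS2 8 of the 23 were called higher and 4 lower than with DMSO, and with FB23-2 6 were higher and 6 lower. These 12 of 23 in each case lie near the share of all genes called, 49.7% with CS2 and 52.0% with FB23-2. Between FB23-2 and CS2 5 were higher and 12 lower, where 59.6% of all genes were called, 29.7% higher and 30.0% lower. The median log2 fold change was 0.10, -0.19 and -0.32 in these comparisons, where it was 0.00, 0.00 and 0.01 over all genes.

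SHMT1, which makes the methylene folate that TYMS uses, rose by 0.80 ± 0.08 with CS2 (adjusted p = 1.85e-07) and was not called with FB23-2 (0.18 ± 0.08, adjusted p = 0.0727), where it was called without FB23-2 replicate 2 (0.24). DCTD, the deaminase that makes dUMP from dCMP, went the other way. It averaged 19.6 ± 1.8 CPM with CS2, 13.5 ± 1.1 CPM with FB23-2 and 33.0 ± 1.0 CPM with DMSO, and fell by 0.75 (adjusted p = 4.82e-06) and by 1.29 (adjusted p = 4.39e-09) with the 2 compounds.

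The nucleoside transporters differed between the compounds. SLC29A1 averaged 307 ± 28 CPM with CS2, 178 ± 2.8 CPM with FB23-2 and 138 ± 8.4 CPM with DMSO, and rose by 1.15 ± 0.08 with CS2 (adjusted p = 5.15e-10) and 0.37 ± 0.08 with FB23-2 (adjusted p = 0.000543). SLC29A2 averaged 23.5 ± 2.1 CPM with CS2, 58.7 ± 5.8 CPM with FB23-2 and 25.2 ± 1.9 CPM with DMSO. It was called with FB23-2 (1.22 ± 0.10, adjusted p = 6.56e-09) and not with CS2 (-0.10 ± 0.10, adjusted p = 0.452), and it was higher with FB23-2 than with CS2 by 1.32 ± 0.10 (adjusted p = 1.55e-09).

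CMPK2, a mitochondrial kinase of UMP, CMP and their deoxy forms that interferon is known to induce, had the largest decrease of the list. It averaged 12.9 ± 0.62 CPM with CS2, 2.61 ± 0.22 CPM with FB23-2 and 10.1 ± 0.40 CPM with DMSO, and was 3.89-fold lower with FB23-2 than with DMSO (log2 fold change -1.96 ± 0.14, adjusted p = 5.42e-10). With CS2 its difference was 0.34 ± 0.12 (adjusted p = 0.0236), and leaving out CS2 replicate 1 (0.31) or DMSO replicate 2 or 3 (0.32 and 0.34), dropping the filter on low counts (0.34, adjusted p = 0.0620) or correcting for gene span (0.21, adjusted p = 0.152) ended that call. NT5C3A, a nucleotidase of pyrimidine monophosphates, rose by 0.73 ± 0.10 with FB23-2 (adjusted p = 7.75e-06). ITPA, which removes inosine triphosphates, fell by 0.72 with FB23-2 (adjusted p = 0.0167), and by 0.46 without FB23-2 replicate 2. NME1, a nucleoside diphosphate kinase, fell by 0.69 with FB23-2 (adjusted p = 1.51e-05), and 17.6% of its windows are shared with the readthrough gene NME1-NME2. With CS2 the nucleotidase NT5C2 fell by 0.51 (adjusted p = 0.000388), and 36.7% of its exon bases are overlapped by CNNM2 on the opposite strand. The deaminase ADA fell by 0.46 with CS2 (adjusted p = 0.0124), and leaving out CS2 replicate 2 (-0.38) or DMSO replicate 3 (-0.41) ended that call. PNP, a purine nucleoside phosphorylase, differed from DMSO in both directions, by 0.43 ± 0.08 with CS2 (adjusted p = 0.000274) and -0.43 ± 0.08 with FB23-2 (adjusted p = 0.000267).

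**Figure D5:**
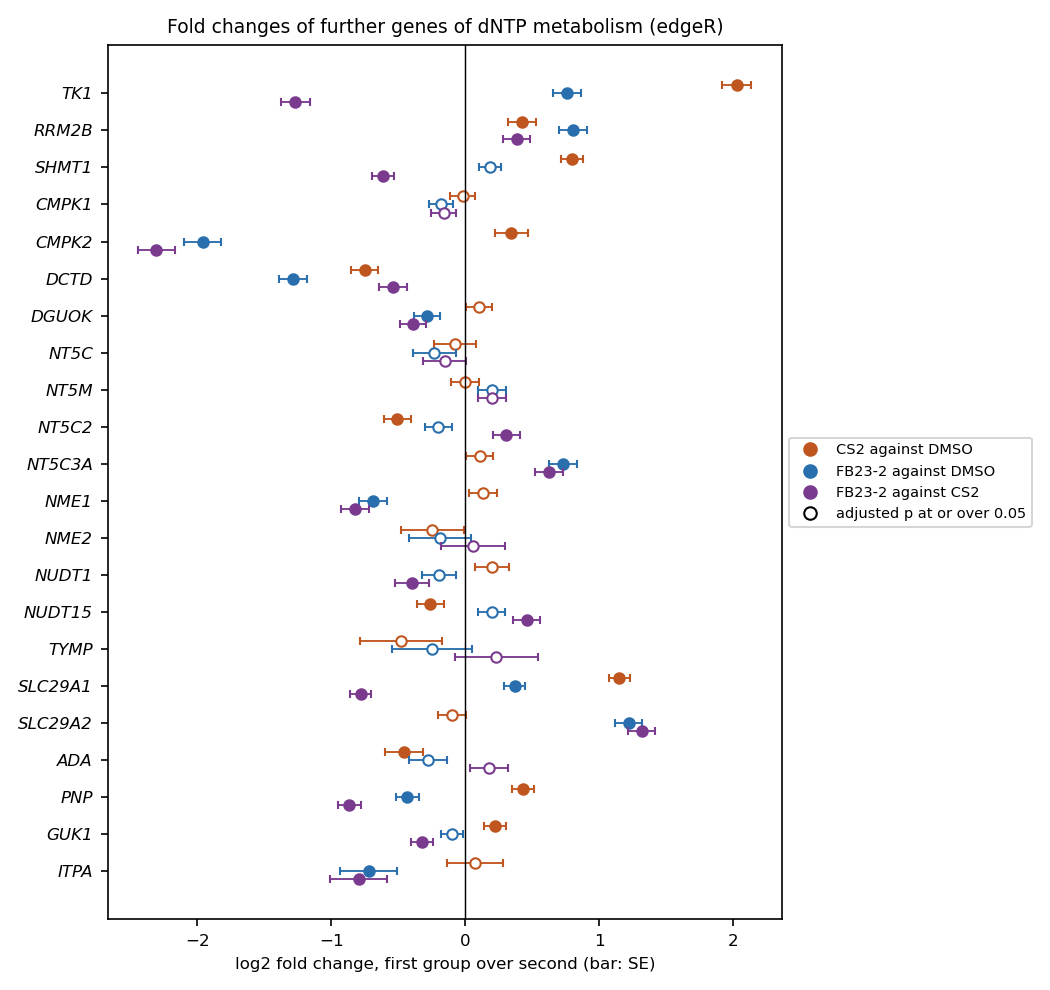
Log2 fold change of further genes of dNTP metabolism, in the 3 comparisons, with points for the estimate, bars for its SE, open points where the adjusted p was at or over 0.05, and a line at 0. TK1 has the highest estimate with CS2 against DMSO (2.03) and CMPK2 the lowest with FB23-2 against DMSO (-1.96).

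Lists of cell cycle genes were read as well. Of 19 genes of the G1 to S transition, 15 were called higher and 0 lower with CS2 than with DMSO, with GINS2 (0.95) and CLSPN (0.81) changed most, where 24.3% of all genes were higher and 25.3% lower. With FB23-2 6 were higher and 6 lower than with DMSO, with the largest changes in CCNE1 (-1.22) and UHRF1 (-0.85), where 25.4% of all genes were higher and 26.7% lower. Against CS2 0 were higher and 16 lower (29.7% and 30.0% of all genes). Of 15 genes of G2 and mitosis, 3 were higher and 9 lower with CS2 than with DMSO, with PLK1 (-0.80) and CENPE (-0.76) changed most. With FB23-2 0 were higher and 12 lower than with DMSO, with PLK1 (-1.67) and CCNB1 (-1.52) changed most. The part of cell cycle phase in the results for the 9 genes was not tested.

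The mRNAs of the named targets of the compounds were also measured. FTO averaged 39.8 ± 0.31 CPM with CS2, 58.3 ± 6.2 CPM with FB23-2 and 56.9 ± 1.6 CPM with DMSO. It fell by 0.52 with CS2 (adjusted p = 6.74e-05) and was not called with FB23-2 (0.04 ± 0.09, adjusted p = 0.754). FTO spans a long stretch of genome, and its difference with CS2 turned to 0.35 when each library was corrected for gene span. DHODH, which encodes dihydroorotate dehydrogenase, averaged 7.87 ± 0.60 CPM with CS2, 16.1 ± 1.8 CPM with FB23-2 and 12.6 ± 0.89 CPM with DMSO. It fell by 0.68 with CS2 (adjusted p = 0.000145) and rose by 0.35 ± 0.12 with FB23-2 (adjusted p = 0.0174), the second a call lost without FB23-2 replicate 1 (0.29) or DMSO replicate 1 or 2 (0.32 each).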

How the data were processed

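RNA of NCI-H69 cells was extracted with TRIzol and made into mRNA libraries with a Hieff NGS Ultima kit, per the labels' protocols. The deposited table holds raw counts per gene in whole numbers. Its build, hg38, comes from the submitters' processing notes. Aligner, counting tool, annotation and strand setting are details not given in the sources used here. The header FB23 was read as FB23-2, since no other H69 treatment begins so.

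Tests were run with edgeR 4.0.16 in R 4.3.3. The filter filterByExpr (minimum count 10, minimum total 15) left 19781 of 62754 genes, which hold 99.9 to 99.92% of each library's counts. The 9 libraries shared 1 quasi-likelihood fit (TMM scaling, robust, group means, no covariate), with Benjamini-Hochberg adjustment over all genes tested and a threshold of 0.05. The biological coefficient of variation was 0.101. A count of 3 in a library stands for 0.0666 to 0.101 CPM, and such floors cover counting error only. Of the 15 samples in the labels, 9 were used. No pair of libraries of the same group agreed within sampling noise (lowest chi-square per degree of freedom 4.21). FB23-2 replicate 2 differed most, at 50.1 from replicate 1 and 48.1 from replicate 3 of its group. Replicates 1 and 3 of FB23-2 stood at 7.42 from each other. The highest value in the other groups was 14.1, between CS2 replicates 1 and 3. The test was also run on simulated data. There few genes changed and all had the same spread, unlike here, which leaves error rates in these data unchecked.

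Alternatives (19) were RLE and library-size scaling, other filters, DESeq2 1.42.0, limma 3.58.1 (voom), only the groups compared, the replicate number as a block, no mitochondrial genes, a correction for gene span, and each library left out. Exon lengths, spans, overlaps and shared 50-base windows came from GENCODE 29 (Python 3.11.15), and promoter windows from RefSeq (GRCh38.p14).

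The 9 members and all lists were chosen with earlier results of these data known. The text names the 9 members, 6 further dNTP genes and up to 4 more per comparison by size of change, 2 genes of each cell cycle list, FTO and DHODH, genes that overlap a member, and the 2 genes closest in pattern to each member. Results for some of these are not reported here.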

Additional observations from a re-analysis of the deposited data

How the results depend on the processing

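Between 6 and 8 of the 9 genes were called with CS2 against DMSO over all alternatives (8 as reported), between 4 and 7 with FB23-2 against DMSO (6 as reported) and between 5 and 7 with FB23-2 against CS2 (6 as reported). Leaving out 1 library at a time gave 6 to 8, 4 to 6 and 6 to 7. RRM1, TYMS, DUT, DTYMK, SAMHD1 and TK2 were called with CS2 against DMSO in all 19 alternatives. With the replicate block the counts were 8, 7 and 6, RRM1 being added for FB23-2 against DMSO (-0.18, adjusted p = 0.0270 in edgeR's test). The replicate numbers are not said to mark a shared batch, so the main fit did not take them as pairs. Same-numbered libraries still deviated together at a correlation over 0.1 in 7 of 9 pairs, and 6 of 9 libraries correlated best with their own number. The pairs below 0 were DMSO replicate 3 with CS2 replicate 3 (-0.057) and with FB23-2 replicate 3 (-0.075). The pairs of FB23-2 and CS2 were all over 0.1, and there the block changed no call of the genes named. The correction for gene span turned the direction of RRM2 (-0.0117), DGUOK (-0.0102), ITPA (-0.0668) and FTO (0.355) with CS2 against DMSO, and of TYMS (0.0816) and FTO (-0.147) with FB23-2 against CS2; of these FTO alone with CS2 was called after it. Leaving out FB23-2 replicate 2 turned DCK (-0.00673) and FTO (-0.0547) with FB23-2 against DMSO, neither called, and FTO reached 0.103 without FB23-2 replicate 3. The same correction called RRM1 with FB23-2 against DMSO (-0.24), and ended the calls of DCK (0.20) and DCTPP1 (0.24) with CS2. The cause of these changes was not tested. TK2 rests on the fewest counts of the 9, 44 to 165 in a library.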

Other observations

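The genes whose log2 CPM followed each of the 9 most closely over the 9 libraries were read off as a description. Between 10016 and 10018 genes averaging at least 10 CPM were compared, and the libraries fall into 3 treatment groups and share their depth and composition, so high values of r are common. RRM1 was closest to HSP90AA1 (Pearson r = 0.990) and NETO2 (0.988), and DUT to PCNA (0.993) and MEA1 (0.992). SAMHD1 was closest to COPS6 (0.996) and C1orf198 (0.995), and TK2 to TMEM140 (0.993) and KLHL2 (0.978). TYMS was closest to SNRPA1 (0.990) and TAP2 (0.985), DTYMK to ATG4D (0.994) and ORAI2 (0.993), and DCTPP1 to TMEM208 (0.994) and ATP6V0B (0.994). The lowest of these values were for RRM2, with ERH (0.976) and ADH5 (0.974), and for DCK, with MED21 (0.978) and CLNS1A (0.966). PCNA, the sliding clamp of DNA polymerase, averaged 939 ± 51 CPM with CS2, 538 ± 45 CPM with FB23-2 and 589 ± 13 CPM with DMSO (SD, n = 3 each).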
